A study of Homo sapiens with 16 samples.

Results

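The genes of the vascular endothelial growth factor (VEGF) and platelet-derived growth factor (PDGF) families were followed through the stepwise gain of gemcitabine resistance in T24 bladder cancer cells. They were chosen by symbol and are the ligands VEGFA, VEGFB, VEGFC, PDGFA, PDGFB, PDGFC and PDGFD, the receptors PDGFRA and PDGFRB, and ESM1, in all 10 of the 39007 genes that the authors listed. Over the 16 libraries, 9 of the 10 averaged more than 1 CPM (reads of a gene scaled to the library total) and were tested among 13249 such genes. PDGFRA had a mean of 0.166 CPM and was examined separately.

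T24 is an established human bladder carcinoma line, and gemcitabine is a nucleoside analogue that stops DNA synthesis. The GRC1 cell line was obtained from T24 by repeated rounds of gemcitabine, and RNA was taken from the parental cells (phase P0) and from GRC1 in its early (P3), intermediate (P7) and late (P15) phases, with 4 libraries for each phase. All phases were cultured in the same medium with serum. The titles of all libraries carry the letters NT. The methods do not explain these letters or state whether gemcitabine was present when RNA was taken. GRC1 is 1 selected line, and neither the labels nor the methods state that the 4 libraries of a phase came from separate cultures, so p-values measure only the spread between these libraries, which may be technical. Time in culture and drug exposure went together along the phases and cannot be told apart. The titles also end in an S with a number, and some of these numbers recur between phases. Neither the labels nor the methods state what they mean or whether all phases were sequenced together. Any part of sequencing runs in the differences was not tested.

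VEGF ligands are secreted dimers that act on the receptor tyrosine kinases FLT1, KDR and FLT4, which are found mainly on blood and lymphatic endothelium, with the neuropilins NRP1 and NRP2 as co-receptors. PDGF ligands act on PDGFRA and PDGFRB, which are typical of fibroblasts and of the mural cells that cover vessels. PDGFA and PDGFB are cleaved inside the cell, whereas PDGFC and PDGFD leave it in a latent form that PLAT and PLAU, the tissue and urokinase plasminogen activators, can cleave. ESM1 (endocan) is a proteoglycan secreted by activated endothelium, and VEGFA is known to raise its transcription there.

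The upstream sequences of the genes with the widest movement among those in the promoter table are given first, since the changes described here are changes in transcript level. RefSeq windows on GRCh38.p14 were at hand for 7 of the 10 genes. VEGFA, PDGFB and PDGFC were not among them. Each sequence is the 250 bases before the annotated start, 5′ to 3′ on the strand of the gene, with capitals for 4 motifs searched on both strands. ACGTG is a form of the core of the hypoxia response element, whose other form, GCGTG, was not searched or marked. TATAAA is the motif that often places the start of transcription. CCAAT is bound by the factor NF-Y in many promoters. GGGCGG, the motif of Sp1-type factors, is called the GC box here, and reads as its reverse complement where it lies on the opposite strand. The windows are chr5:54985594-54985843 for ESM1, chr5:150155846-150156095 for PDGFRB, chr11:104164148-104164397 for PDGFD and chr4:176792923-176793172 for VEGFC, all on the minus strand. Gene positions given below are the outer bounds in GENCODE. The RefSeq starts of ESM1, PDGFRB and PDGFD lie inside those bounds, so that the window of ESM1 lies wholly and those of PDGFRB and PDGFD partly within them, while that of VEGFC lies just outside.
ESM1: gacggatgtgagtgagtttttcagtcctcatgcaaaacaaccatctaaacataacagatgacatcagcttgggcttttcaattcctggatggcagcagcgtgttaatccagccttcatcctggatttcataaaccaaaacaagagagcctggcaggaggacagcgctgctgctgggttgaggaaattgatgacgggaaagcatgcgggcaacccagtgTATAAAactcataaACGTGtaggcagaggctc
PDGFRB: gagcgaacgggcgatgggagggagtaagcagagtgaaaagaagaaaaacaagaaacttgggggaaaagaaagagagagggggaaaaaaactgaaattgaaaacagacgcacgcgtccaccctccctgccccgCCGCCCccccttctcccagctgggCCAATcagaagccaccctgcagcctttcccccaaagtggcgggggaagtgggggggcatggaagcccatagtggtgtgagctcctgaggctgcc
PDGFD: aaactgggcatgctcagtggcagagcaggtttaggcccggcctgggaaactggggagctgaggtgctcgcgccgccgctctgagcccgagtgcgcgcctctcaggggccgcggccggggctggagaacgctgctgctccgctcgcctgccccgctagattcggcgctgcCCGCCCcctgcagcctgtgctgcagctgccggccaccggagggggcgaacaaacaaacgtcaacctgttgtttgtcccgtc
VEGFC: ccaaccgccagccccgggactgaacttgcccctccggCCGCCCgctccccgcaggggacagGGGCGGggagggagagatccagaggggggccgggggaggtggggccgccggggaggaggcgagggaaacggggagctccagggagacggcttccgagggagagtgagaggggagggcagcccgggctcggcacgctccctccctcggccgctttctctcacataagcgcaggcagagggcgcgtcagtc
The ESM1 window held a TATAAA from base 32 to base 27 before the start and an ACGTG from base 18 to base 14. It was the only one of the 7 genes with either motif, which 10.7% (TATAAA) and 18.5% (ACGTG) of all 35116 windows held. This does not make it the only one with a hypoxia core. The form GCGTG, on either strand, can be read in the printed windows of ESM1, PDGFRB and VEGFC. PDGFRB carried a CCAAT from base 94 to base 90, a motif of 32% of windows, and a GC box on the opposite strand. PDGFD held 1 GC box and VEGFC 2, a motif of 42.6% of windows. Bases G and C made up 47.6% of the ESM1 window, 58.4% of that of PDGFRB, 69.2% of that of PDGFD and 74% of that of VEGFC, with a median of 58% over all windows. These letters describe the windows only, and no binding was measured.

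Reads were deposited as log2 of CPM plus 1, and values below are on that scale unless CPM is named. Judged by the steps between low values, libraries held 33.7 to 49.8 M counts, and 1 count was worth 0.0201 to 0.0297 CPM. Medians of the tested genes differed from the overall median by at most 0.06 in any library. Markers of other cell types were low. Summed over 6 endothelial markers, CPM was 6.47 to 8.62 per library at P0, mostly CDH5 (5.69 CPM on average), and at most 1.09 at any later phase. Summed over 8 mural cell and fibroblast markers it was 9.99 to 11.04 at P0, 12.5 to 13.8 at P3, 13.9 to 15.6 at P7 and 27.5 to 31.5 at P15, where COL1A1 reached 23.97 CPM and DCN was at 0. Summed over 4 leukocyte markers it was 6.16 to 8.51 at P0, 1.83 to 2.15 at P3, 5.50 to 6.11 at P7 and at most 0.129 at P15, mostly CD14 in the first 3 of these phases, with PTPRC at 0 there. Of 6 epithelial markers, 5 had a mean above 1 CPM at P0, P3 and P7 and 3 at P15, and their sum went from 2075 to 2153 CPM at P0 to 673 to 751 CPM at P15. CDH1, the epithelial cadherin, had a mean of at most 0.05 CPM in every phase, so the epithelial label rested on keratins and EPCAM at P0, P3 and P7. At P15 it rested mostly on KRT18, which went from 471 CPM at P0 to 633 CPM. The others fell from P0 to P15, KRT7 from 957 to 11.5 CPM and KRT8 from 593 to 70.3 CPM. KRT19 went from 85.1 to 0.01 CPM and EPCAM from 5.41 to 0.81 CPM. The part of these shifts in the results below was not tested.

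The families did not move as a unit. Late phase P15 had the lowest level of VEGFA, VEGFB, VEGFC, PDGFA, PDGFB and ESM1 and the highest level of PDGFD. PDGFRB fell to 0.265 ± 0.143 CPM at P3 and had 2.38 ± 0.229 CPM at P15, beside 2.77 ± 0.525 CPM at P0. ESM1 moved most, from 17.4 ± 0.698 CPM (SD, n = 4) at P3 to 0.197 ± 0.065 CPM at P15. VEGFC and PDGFB, which code for well studied growth factors of lymphatic and mural cells, parted at P3, where VEGFC rose and PDGFB fell.

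**Figure D1:**
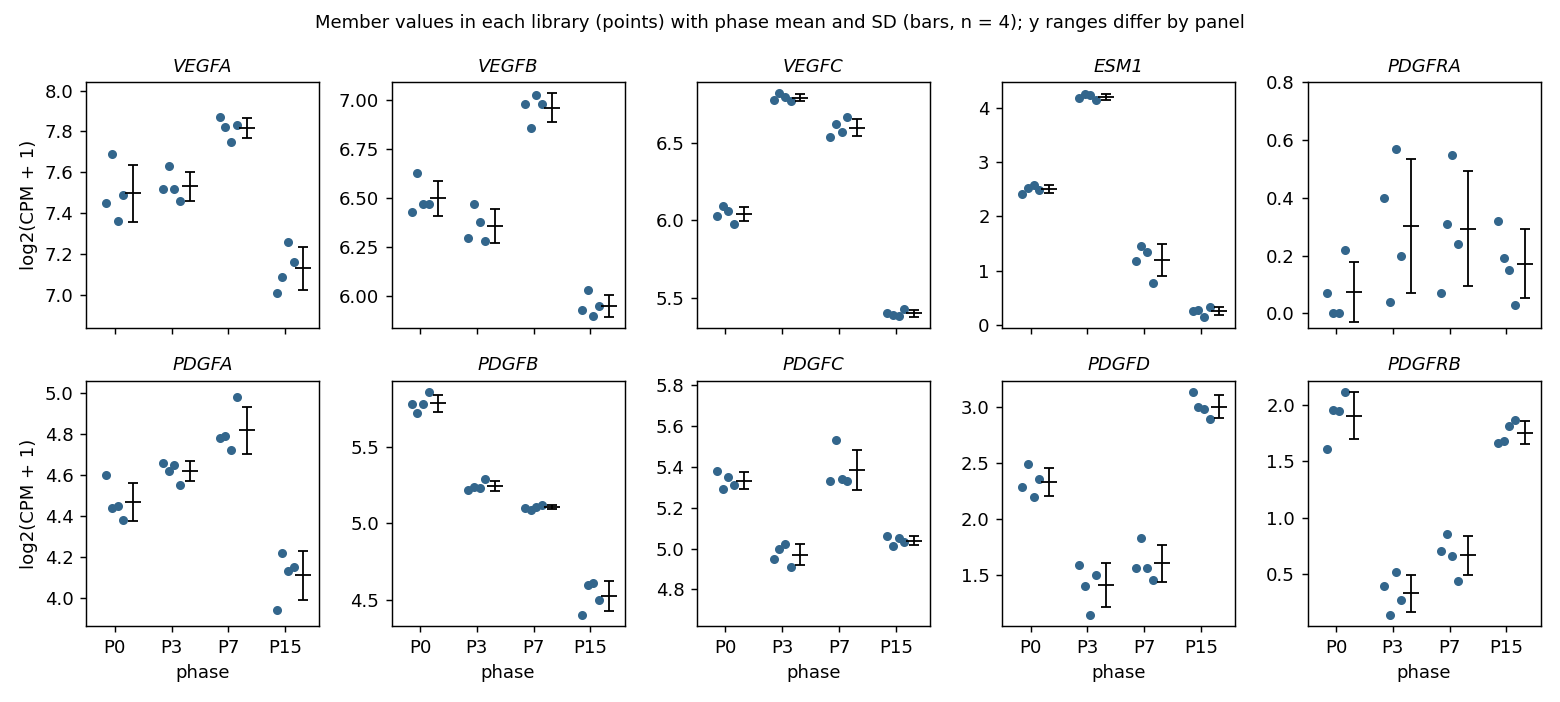
Values of the 10 genes in each library as log2(CPM + 1) by phase, with points for libraries and bars for the phase mean and SD (n = 4), and with a y range of its own for each panel. ESM1 peaked at P3 with a mean of 4.2 and ended at 0.26, PDGFD and PDGFRB dipped at P3 and P7, and PDGFRA stayed between 0 and 0.57 in all 16 libraries.

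A gene was called when its adjusted p was below 0.05 (limma with Benjamini-Hochberg adjustment over all tested genes) and its level differed at least 2-fold on the deposited scale. At P3 against P0, 1 of the 9 tested genes was called higher (ESM1) and 1 lower (PDGFRB), where 1.95% of all tested genes were called higher and 2.51% lower. At P7 against P3, 0 were called higher (5 at an unadjusted p below 0.05 and with no fold threshold) and 1 lower (ESM1), beside 0.989% and 0.845% of all genes. At P15 against P7, 2 were called higher (PDGFD and PDGFRB) and 2 lower (VEGFB and VEGFC), beside 13.4% and 12.1% of all genes. After quantile normalization of the libraries, PDGFD alone was called higher in that comparison, and VEGFC and ESM1 lower. In relation to P0, 2 were called lower at P7 (PDGFRB and ESM1), beside 1.52% of all genes, and 2 lower at P15 (PDGFB and ESM1), beside 11.4%. In these fits 0 were called higher than P0 (4 at P7 and 1 at P15 had an unadjusted p below 0.05), where 1.86% (P7) and 12.1% (P15) of all genes were. At P15 against P3, 2 were called higher (PDGFD and PDGFRB) and 2 lower (VEGFC and ESM1), beside 14.9% and 12.1% of all genes.

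Without the fold threshold, 3 of the 9 genes passed as higher and 5 as lower at P3 against P0, where 31.4% and 37.3% of all genes did. At P7 against P3, 5 were higher and 3 lower, beside 30.3% and 28.0% of all genes. At P15 against P7, 2 were higher and 7 lower, beside 46.3% and 40.1%. In relation to P0, 4 were higher and 4 lower at P7, beside 27.9% and 34.2%, and 1 was higher and 7 lower at P15, beside 45.3% and 40.9%. At P15 against P3, 2 were higher and 6 lower, beside 46.1% and 41.1%. The balance at P15 thus leaned to lower levels among these genes and to higher levels over all genes. The median log2 fold change of the 9 genes was -0.14 for P3 against P0, 0.20 for P7 against P3, -0.69 for P15 against P7 and -0.37 for P15 against P0. Over all tested genes these medians were -0.03, 0.01, 0.06 and 0.04. Comparisons with a phase in common use the same libraries of that phase and are not independent of each other.

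The order of levels within a phase is given per kilobase of the Ensembl canonical transcript. Over the 16 libraries, VEGFA had 50.5 CPM per kilobase, VEGFB 49.2 and VEGFC 34.5. The PDGF ligands were lower, with 9.83 CPM per kilobase for PDGFB, 8.05 for PDGFA, 7.78 for PDGFC and 0.962 for PDGFD. ESM1 had 2.81, PDGFRB 0.263 and PDGFRA 0.026 CPM per kilobase. The order depended on the length used. With the union of all its exons, 14431 bases in place of 3609, VEGFA had 12.6 CPM per kilobase and stood below VEGFB (45.1) and VEGFC (29.8). By the same measure PDGFC (5.93) stood above PDGFA (4.81). At P0, the levels of VEGFA (50.0 ± 4.98) and VEGFB (49.7 ± 3.17) differed by less than their SD. With the canonical length, the order of PDGFA and PDGFC turned between phases, with 8.61 ± 0.305 against 6.64 ± 0.235 at P3 and 5.95 ± 0.509 against 6.97 ± 0.110 at P15.

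VEGFA, the main driver of vessel growth and permeability, lies at chr6:43770184-43786487 (plus strand). Its log2 values were 7.45, 7.69, 7.36 and 7.49 at P0, 7.52, 7.63, 7.52 and 7.46 at P3, 7.87, 7.82, 7.75 and 7.83 at P7, and 7.01, 7.09, 7.26 and 7.16 at P15. Each of the 4 libraries at P7 lay above, and each at P15 below, all libraries of the other phases, while P0 and P3 overlapped. The difference between P3 and P0 was 0.04 (SE 0.06, adjusted p = 0.59, limma), and its sign turned without P0 replicate 3 (-0.011). VEGFA rose by 0.29 from P3 to P7 (adjusted p = 0.00012) and fell by 0.69 from P7 to P15 (adjusted p = 2.71e-11, limma), which left it 0.37 below P0 (adjusted p = 1.47e-06).

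VEGFB, a ligand of FLT1 linked to fatty acid uptake in endothelium, lies at chr11:64234584-64239264 (plus strand). Its values were 6.43, 6.63, 6.47 and 6.47 at P0, 6.30, 6.47, 6.38 and 6.28 at P3, 6.98, 6.86, 7.03 and 6.98 at P7, and 5.93, 6.03, 5.90 and 5.95 at P15. As with VEGFA, P7 was the highest phase and P15 the lowest, with no overlap with the others. VEGFB rose by 0.61 from P3 to P7 (SE 0.05, adjusted p = 1.77e-10, limma) and fell by 1.01 from P7 to P15 (SE 0.05, adjusted p = 6.79e-16, limma), just past the fold threshold. It was not called after quantile normalization (-0.98), with a pseudocount of 5 (-0.97), without P7 replicate 3 (-0.99) or without P15 replicate 3 (-0.99). The small fall from P0 to P3 (-0.14, adjusted p = 0.0111, limma) had overlapping libraries and did not pass without P0 replicate 2 (-0.10, adjusted p = 0.0573).

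VEGFC, the ligand of FLT4 that drives lymphatic growth, lies at chr4:176683538-176792922 (minus strand), and its upstream window with 2 GC boxes is printed above. Its values were 6.03, 6.09, 6.06 and 5.98 at P0, 6.78, 6.82, 6.80 and 6.77 at P3, 6.54, 6.62, 6.57 and 6.67 at P7, and 5.4, 5.39, 5.38 and 5.43 at P15. No library of any phase overlapped with another phase, and the SD within a phase was at most 0.06. In contrast to VEGFA and VEGFB, the highest phase was P3. VEGFC fell by 0.19 from P3 to P7 (SE 0.03, adjusted p = 5.41e-05, limma) and by 1.2 from P7 to P15 (SE 0.03, adjusted p = 3.66e-20, limma). In CPM, the level went from 110 ± 1.71 at P3 to 41.2 ± 0.635 at P15, a ratio of 2.67, and P15 was 0.64 below P0 on the log2 scale (adjusted p = 1.38e-14).

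Summed per kilobase, the 3 VEGF ligands gave 128 ± 8.50 CPM per kilobase at P0, 145 ± 5.96 at P3, 173 ± 3.20 at P7 and 90.6 ± 2.56 at P15 (SD, n = 4). The sum at P15 was below that of every library of P7 and of P0 (exact permutation test, two-sided, p = 0.0286, the smallest that 4 against 4 libraries allow, and 0.0367 after adjustment over 36 such tests). The rise from P0 to P3 did not pass with the canonical length (exact permutation p = 0.0571, adjusted 0.0709) and passed with the exon-union length (exact permutation p = 0.0286, adjusted 0.0367). The make-up of the sum changed as well. VEGFC made up 22.4 ± 1.15% of it at P0, 33.7 ± 0.858% at P3, 24.5 ± 1.01% at P7 and 20.2 ± 0.681% at P15. The share at P3 was 11.2 percentage points above that at P0 in an exact permutation test (p = 0.0286, adjusted 0.0367). The share of VEGFB dropped by 7.66 percentage points, with 38.7 ± 0.586% at P0 and 31.1 ± 0.670% at P3 (exact permutation p = 0.0286, adjusted 0.0367). The shares of a sum are tied to each other and are not separate results. On the log2 scale, VEGFB itself fell by 0.14 over this step with overlapping libraries, while VEGFC rose by 0.75.

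ESM1 lies at chr5:54977867-55022671 (minus strand), and its upstream window with the TATAAA and ACGTG motifs is printed above. Its log2 values were 2.41, 2.53, 2.57 and 2.49 at P0, 4.17, 4.26, 4.23 and 4.14 at P3, 1.18, 1.46, 1.35 and 0.78 at P7, and 0.26, 0.28, 0.15 and 0.34 at P15. No phases overlapped, and the spread was widest at P7 (SD 0.30). The estimated counts behind these values were 164 to 173 per library at P0, 560 to 734 at P3, 28 to 87 at P7 and 4 to 12 at P15. ESM1 rose by 1.70 from P0 to P3 (SE 0.11, adjusted p = 1.03e-12, limma) and fell by 3.01 from P3 to P7 (SE 0.11, adjusted p = 7.32e-17, limma). It fell by a further 0.94 to P15 (adjusted p = 1.5e-08, limma), where it stood 2.24 below P0 and 3.94 below P3. That last step was called without P7 replicate 4, the lowest of its phase (-1.07), and after quantile normalization (-1.01). The size of these differences depended on the pseudocount. The difference between P15 and P3 was -5.91 with a pseudocount of 0.1 and -2.11 with 5, and that between P15 and P7 was -2.22 and -0.28. With 5, that between P7 and P3 was -1.83, and that between P15 and P0 was -0.89 and was not called. In CPM, which carries no pseudocount, P3 was 3.73 times P0 and 88.4 times P15. ESM1 is a gene of activated endothelium, and at P3, its highest phase, the 6 endothelial markers summed to 0.478 to 0.749 CPM per library, below their sum at P0, with EMCN at 0. TIE1, an endothelial receptor outside those 6 markers, was higher at P3 (9.35 ± 0.643 CPM) than at P0 (2.15 ± 0.5003 CPM).

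PDGFA, a ligand of PDGFRA, lies at chr7:497258-520296 (minus strand). Its values were 4.6, 4.44, 4.45 and 4.38 at P0, 4.66, 4.62, 4.65 and 4.55 at P3, 4.78, 4.79, 4.72 and 4.98 at P7, and 3.94, 4.22, 4.13 and 4.15 at P15. P15 was the lowest phase in every library and P7 the highest. The differences from P0 to P3 (0.15, SE 0.06, adjusted p = 0.0411, limma) and from P3 to P7 (0.20, adjusted p = 0.0119, limma) were small. The first, whose libraries overlapped, did not pass when any of P0 replicates 2, 3 and 4 or P3 replicates 1, 2 and 3 was left out (adjusted p = 0.066 to 0.126), and the second did not pass without P7 replicate 4 (0.14, adjusted p = 0.0687). The fall from P7 to P15 was 0.71 on the log2 scale (SE 0.06, adjusted p = 3.14e-10, limma). Centred on their own means, the 4 phase means of PDGFA and VEGFA differed by a root mean square of 0.05, the closest pair among the 9 genes.

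PDGFB, the ligand that recruits pericytes through PDGFRB, lies at chr22:39223359-39244982 (minus strand). Its values were 5.78, 5.72, 5.78 and 5.86 at P0, 5.22, 5.24, 5.23 and 5.29 at P3, 5.10, 5.09, 5.11 and 5.12 at P7, and 4.40, 4.6, 4.61 and 4.50 at P15. Every library of a later phase was below every library of the phase before it. PDGFB fell by 0.54 from P0 to P3 (SE 0.05, adjusted p = 3.5e-10, limma), by 0.14 from P3 to P7 (adjusted p = 0.0126) and by 0.58 from P7 to P15 (adjusted p = 2.61e-11). It was the 1 gene of the 9 that passed as lower at each of the 3 steps. Of all tested genes, 37.3%, 28.0% and 40.1% passed as lower at the single steps, and the share at all 3 was not computed. The whole fall from P0 to P15 was 1.26 (adjusted p = 4.96e-18, limma), from 54.2 ± 2.21 to 22.1 ± 1.55 CPM.

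PDGFC lies at chr4:156760454-156971799 (minus strand) and codes for a latent ligand of PDGFRA. Its values were 5.38, 5.29, 5.35 and 5.31 at P0, 4.95, 5.00, 5.02 and 4.91 at P3, 5.33, 5.53, 5.34 and 5.33 at P7, and 5.06, 5.01, 5.05 and 5.03 at P15. It went down, up and down again within the narrowest range of the 9 genes, 0.41 on the log2 scale. The falls were 0.36 from P0 to P3 (SE 0.05, adjusted p = 2.73e-07, limma) and 0.35 from P7 to P15 (adjusted p = 2.49e-07), with a rise of 0.41 between them (adjusted p = 6.71e-08). P7 overlapped with P0 (difference 0.05, adjusted p = 0.36), and P15 with P3 (difference 0.07, adjusted p = 0.175, limma).

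PDGFD, a latent ligand of PDGFRB, lies at chr11:103907189-104164379 (minus strand), and 4.53% of its exon bases are shared with DDI1 on the opposite strand. Its values were 2.28, 2.49, 2.19 and 2.35 at P0, 1.59, 1.40, 1.14 and 1.5 at P3, 1.56, 1.83, 1.56 and 1.45 at P7, and 3.13, 3.00, 2.98 and 2.89 at P15. P15 was the highest phase and P0 the second, while P3 and P7 overlapped. PDGFD fell by 0.92 from P0 to P3 (SE 0.10, adjusted p = 2.75e-08, limma) and rose by 1.40 from P7 to P15 (SE 0.10, adjusted p = 3.87e-12, limma), to 0.67 above P0 (adjusted p = 1.61e-06). In CPM it went from 4.03 ± 0.447 at P0 to 1.67 ± 0.346 at P3 and 7.01 ± 0.555 at P15. With a pseudocount of 5 the rise from P7 to P15 was 0.77 and was not called, and with 0.1 the fall from P0 to P3 was -1.24. It was the 1 ligand of the 7 that rose at P15. Of the 13249 tested genes, 43.5% had their highest phase mean at P15.

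The summed PDGF ligands fell from 31.9 ± 0.782 CPM per kilobase at P0 to 25.6 ± 0.240 at P3, were 28.4 ± 0.965 at P7 and fell to 20.7 ± 0.719 at P15 (SD, n = 4). P15 was lower than P0 in every library (exact permutation p = 0.0286, adjusted 0.0367). PDGFB made up 45.6 ± 1.6% of the sum at P0 and 28.7 ± 1.06% at P15, so that it dropped by 16.9 percentage points (exact permutation p = 0.0286, adjusted 0.0367). PDGFC made up 33.8 ± 1.61% at P15 against 27.0 ± 0.442% at P0, above PDGFB at P15 with the canonical length, while with the exon-union length PDGFB had 34.5 ± 1.31% and PDGFC 33.1 ± 1.5%. These shares are tied as well. The share of PDGFC rose although its level fell, from 39.3 ± 1.13 CPM at P0 to 31.9 ± 0.504 CPM at P15. PDGFD went from 3.30 ± 0.424% at P0 to 1.70 ± 0.359% at P3 and 8.86 ± 0.939% at P15.

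**Figure D2:**
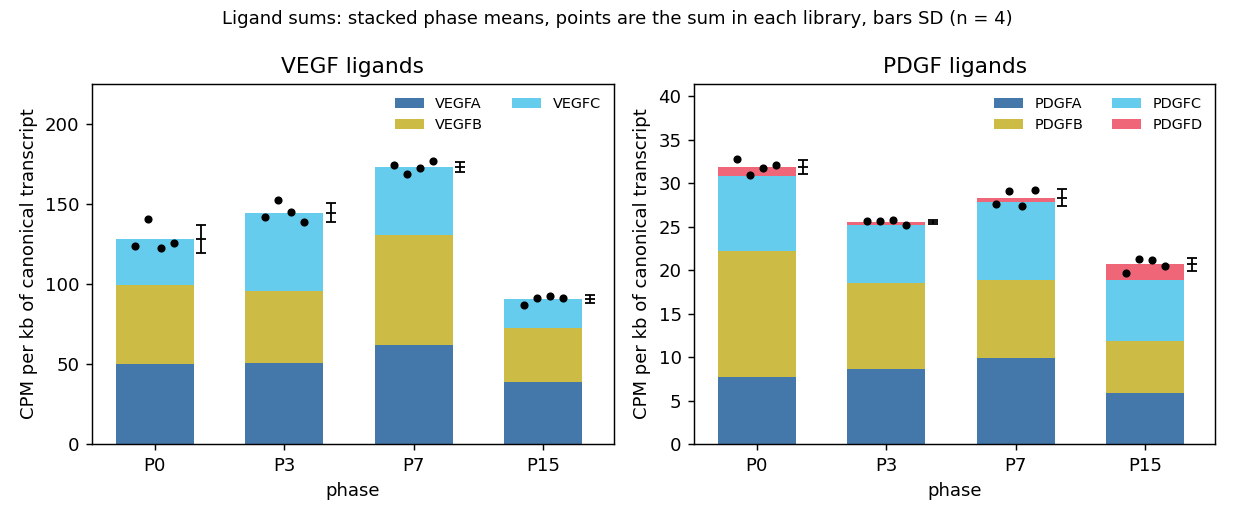
Stacked phase means of the VEGF ligands and of the PDGF ligands in CPM per kilobase of canonical transcript, with points for the sum in each library and bars for its mean and SD (n = 4). VEGFC took 33.7% of the VEGF sum at P3 against 22.4% at P0, and PDGFB went from 45.6% of the PDGF sum at P0 to 28.7% at P15.

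PDGFRB, the receptor for PDGFB and PDGFD, lies at chr5:150113839-150155872 (minus strand), and its upstream window with the CCAAT box is printed above. Its values were 1.61, 1.95, 1.94 and 2.11 at P0, 0.40, 0.14, 0.52 and 0.27 at P3, 0.71, 0.86, 0.66 and 0.44 at P7, and 1.66, 1.68, 1.81 and 1.86 at P15. P0 and P15 overlapped and lay above all libraries of P3 and P7. Estimated counts were 78 to 119 per library at P0, 4 to 18 at P3, 14 to 41 at P7 and 86 to 118 at P15. PDGFRB fell by 1.57 from P0 to P3 (SE 0.11, adjusted p = 1.71e-11, limma) and rose by 1.09 from P7 to P15 (SE 0.11, adjusted p = 3.97e-09, limma). In CPM the fall was from 2.77 ± 0.525 to 0.265 ± 0.143, a ratio of 10.4, and the level at P15 was 2.38 ± 0.229. The fall from P0 to P3 was -3.04 with a pseudocount of 0.1 and -0.56 with 5, and the rise from P7 to P15 was 1.87 and 0.40, so that neither was called with 5. After quantile normalization the rise was 0.91 and was not called.

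The difference of PDGFRB between P15 and P0 was -0.15 (SE 0.11, adjusted p = 0.221, limma). It passed without P0 replicate 1, the lowest of its phase (-0.25, adjusted p = 0.0485), and after quantile normalization (-0.30, adjusted p = 0.019). From P3 to P7 it rose by 0.34 (adjusted p = 0.0151, limma) with overlapping libraries. That rise did not pass without P3 replicate 2 (adjusted p = 0.0619), without P7 replicate 2 (adjusted p = 0.0615), with a pseudocount of 5 (adjusted p = 0.0965) or without a filter on low genes (adjusted p = 0.0731). In these bulk samples, fewer cells with PDGFRB and less PDGFRB per cell cannot be told apart. Of the 8 mural cell and fibroblast markers, 3 were at 0 in all libraries of P0 (COL1A2, LUM and DCN). Between P0 and P3, COL1A1 went from 5.01 to 1.76 CPM and CSPG4 from 2.2 to 7.20 CPM, and the part of these markers in the levels of PDGFRB was not tested.

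PDGFRA, the receptor for PDGFA and PDGFC, lies at chr4:54229280-54298245 (plus strand), with 16.1% of its exon bases shared with another annotated gene on the same strand. Its values were 0.07, 0, 0 and 0.22 at P0, 0.40, 0.04, 0.57 and 0.20 at P3, 0.07, 0.31, 0.55 and 0.24 at P7, and 0.32, 0.19, 0.15 and 0.03 at P15. These correspond to an estimated 0 to 20 counts per library, and all phases overlapped. None of the 6 comparisons passed in an exact permutation test (two-sided, p = 0.0857 to 0.971, adjusted 0.429 to 0.971). The smallest p this test allows is 0.0286 before adjustment over the 6 comparisons, so it could hardly pass and cannot decide whether PDGFRA differed. In limma without the filter on low genes none of the 6 passed either (lowest adjusted p = 0.139, P3 against P0). A difference in PDGFRA was neither shown nor excluded.

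**Figure D3:**
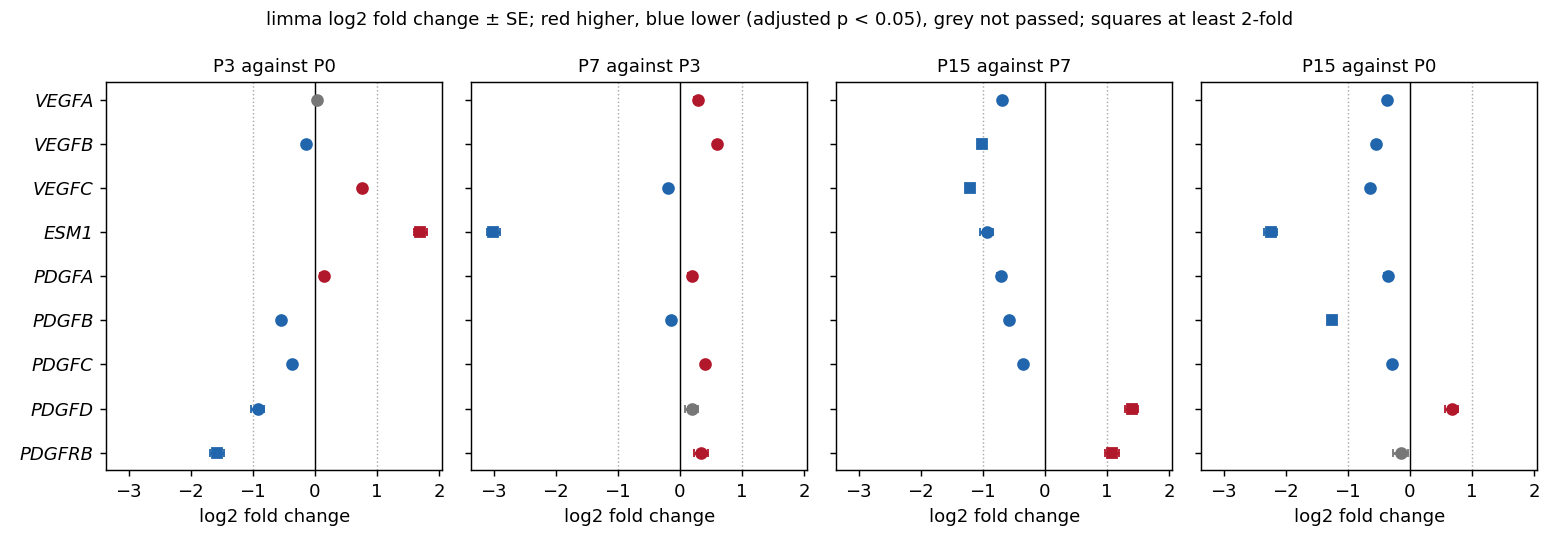
Differences in log2(CPM + 1) for the 9 tested genes between successive phases and between P15 and P0, with limma's estimate and its standard error, in red (higher), blue (lower) or grey (not passed), squares for called genes and dotted lines at a 2-fold difference. VEGFC (-1.2) and VEGFB (-1.01) fell past the line from P7 to P15, where PDGFD (1.40) and PDGFRB (1.09) rose past it.

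Among the 9 tested genes, 6 had a range of phase means of at least 1 on the log2 scale, against 34.6% of all tested genes, and the median range was 1.26 against 0.74. P15 was the lowest phase for 6 of 9, against 38.5% of all genes, and P7 the highest for 4 of 9, against 16.2%. Within the 9, the closest patterns after VEGFA and PDGFA were VEGFA and VEGFB (root mean square difference of the 4 centred phase means 0.13). PDGFD and PDGFRB, a ligand and its receptor, differed by 0.31. ESM1 was far from every other gene of the 9, at least 1.16 (VEGFC).

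Over the whole table, the patterns nearest to each of the 6 wide-ranging genes were taken by the same measure over 4 phase means. CTSF (0.03), PSG9 (0.13) and PTPN13 (0.14) were nearest to PDGFRB. For PDGFD they were S1PR5, AARS and PLD1 (0.04 to 0.05), and for PDGFB they were TMEM25, ABLIM1 and CRLS1 (0.03 to 0.05). VEGFC was followed most closely by ECM1, SLC37A1 and PSORS1C1 (0.03 to 0.05), and VEGFB by DARS-AS1, B4GALNT4 and BDH2 (0.03 to 0.05). For ESM1, which had the widest range, the nearest genes were farther off by this measure, which is not scaled to the range of a gene. They were ANKRD1 at 0.30, COL4A6 at 0.49 and GABBR2 at 0.51. ANKRD1 went from a log2 mean of 5.78 at P0 to 6.79 at P3, 4.14 at P7 and 2.77 at P15. ESM1 had 2.5, 4.2, 1.19 and 0.26 in the same phases, so both rose to P3 and then fell.

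The other genes of these pathways were taken from a list of 44 symbols, of which 43 were found and 31 tested. Between P3 and P0, 1 was called higher and 1 lower, beside 1.95% and 2.51% of all tested genes. Without the fold threshold 15 and 14 passed there, beside 31.4% and 37.3%. Between P7 and P3 none was called higher and 2 lower, beside 0.989% and 0.845% of all genes, and 14 and 9 passed, beside 30.3% and 28.0%. Between P15 and P7, 4 of the 31 were called higher, where 13.4% of all tested genes were, and 10 lower, where 12.1% were. Without the fold threshold, 9 passed as higher and 19 as lower in that comparison, beside 46.3% and 40.1% of all genes. Between P15 and P0, 2 of the 31 were called higher and 12 lower, beside 12.1% and 11.4% of all genes, and 7 and 23 passed, beside 45.3% and 40.9%. The list's median log2 fold change was 0.12, -0.01, -0.50 and -0.57 in these comparisons, so that it was lower at P15, as the median of the 9 genes was.

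The receptor tyrosine kinases of the VEGF ligands were nearly absent. FLT1, KDR and FLT4 had phase means of at most 0.18 on the log2 scale, and VEGFD, the other lymphatic ligand, at most 0.22. FLT1 and KDR were listed at 0 in all 4 libraries of P15. PGF, placental growth factor, was present, also with its highest level at P7 and its lowest at P15, with 5.02 ± 0.07 at P0, 5.44 ± 0.03 at P3, 5.72 ± 0.13 at P7 and 3.14 ± 0.12 at P15 (log2, SD, n = 4). Its fall from P7 to P15 was 2.58 (SE 0.06, adjusted p = 6.98e-22, limma). The co-receptor NRP1 had 37.1 CPM per kilobase at P7, beside 1.25 for NRP2 and at most 0.02 for FLT1, KDR and FLT4. From 209 ± 4.49 CPM it fell by 3.14 to 22.9 ± 0.605 CPM at P15 (SE 0.03, adjusted p = 1.06e-28, limma). NRP2 fell by 0.50 over the same step (adjusted p = 5.57e-05). From P0 to P3 the change of NRP2 was 0.20 and did not pass (adjusted p = 0.0697, limma), though it passed without P0 replicate 1, P0 replicate 3 or P3 replicate 4 (adjusted p = 0.0155 to 0.0427).

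Of the 7 tested proteases and cofactors that release or cleave the ligands, 3 passed as higher and 4 as lower at P15 against P0, beside 45.3% and 40.9% of all tested genes. PLAT had a log2 mean of 8.15 ± 0.06 at P0, 7.18 ± 0.08 at P3, 5.37 ± 0.06 at P7 and 7.10 ± 0.05 at P15. It fell by 1.81 from P3 to P7 (adjusted p = 9.57e-21, limma) and rose by 1.73 from P7 to P15 (adjusted p = 5.32e-22, limma). PLAU, which can cleave latent PDGFD, rose by 1.16 from P0 to P15 (SE 0.03, adjusted p = 3.27e-20, limma), from 357 ± 9.21 to 799 ± 41.8 CPM. In the annotation, 31% of PLAU exon bases overlap C10orf55 on the opposite strand. CCBE1, a cofactor for the cleavage of VEGFC, rose by 0.57 from P0 to P3 (adjusted p = 8.01e-10, limma) and fell by 1.25 from P3 to P7 (adjusted p = 1.25e-15, limma). It then rose by 1.11 from P7 to P15 (adjusted p = 4.33e-16, limma), to 0.44 above P0 (adjusted p = 2.92e-08).

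Among the 5 tested matrix proteins and inhibitors, 4 passed as lower and 1 as higher at P15 against P0, beside 40.9% and 45.3% of all tested genes. SPARC, a matrix protein that binds PDGF and VEGF ligands, fell by 8.26 from P7 to P15 (adjusted p = 5.1e-32, limma), from 482 ± 5.82 to 0.585 ± 0.206 CPM. THBS2, an inhibitor of angiogenesis, fell by 2.11 from P0 to P3 (adjusted p = 7.85e-17, limma) and was 3.25 below P0 at P15 (adjusted p = 1.51e-21), although 31.2% of its exon bases overlap an antisense gene. TIE1, an endothelial receptor of the angiopoietin system, rose by 1.73 from P0 to P3 (adjusted p = 1.27e-13, limma). It fell by 3.05 from P7 to P15 (adjusted p = 2e-19, limma), to 1.49 below P0 (adjusted p = 4.29e-13). PDGFRL, a PDGF receptor-like protein without a kinase, rose by 2.62 from P7 to P15 (SE 0.11, adjusted p = 1.23e-16, limma) and was 1.47 above P0 (adjusted p = 1.45e-11), with a change in the direction of PDGFD.

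**Figure D4:**
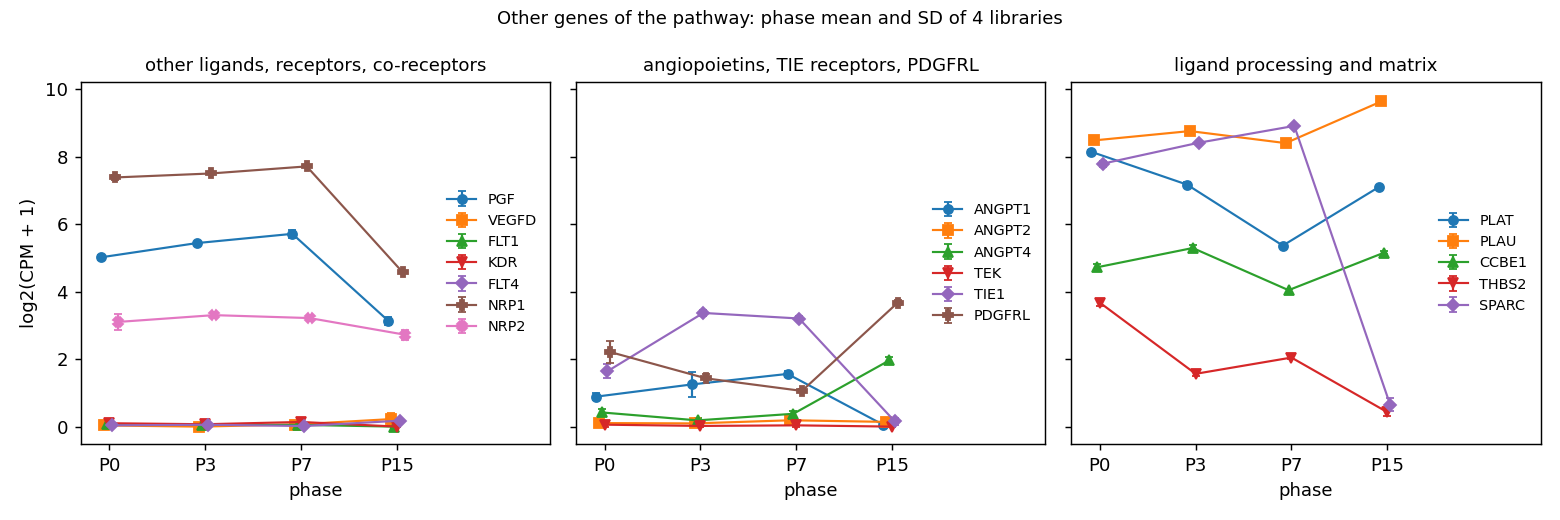
Phase means of log2(CPM + 1) with SD (n = 4) for PGF and the VEGF receptors and neuropilins, for the angiopoietin system and PDGFRL, and for the named ligand-processing and matrix genes. NRP1 went from 7.72 at P7 to 4.58 at P15, PDGFRL from 1.06 to 3.68, and SPARC from 8.92 to 0.66.

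Of the 6 genes of oxygen sensing, which control VEGFA in many cells, all were tested. Between P15 and P7, 3 passed as higher and 3 as lower, 2 of the latter past the fold threshold. Of all tested genes, 46.3% passed as higher there, 40.1% as lower, and 12.1% were called lower. HIF1A and EPAS1, which code for the oxygen-regulated subunits and were picked after their values were seen, moved apart. HIF1A had log2 means of 8.42 ± 0.04 at P0, 7.93 ± 0.01 at P3, 7.73 ± 0.07 at P7 and 8.31 ± 0.05 at P15. EPAS1 had 8.15 ± 0.02, 8.75 ± 0.04, 8.71 ± 0.05 and 7.05 ± 0.03, and it fell by 1.66 from P7 to P15 (SE 0.03, adjusted p = 1.54e-24, limma). Transcript levels of these genes do not measure their protein, which is set by oxygen. Of the 7 receptor signalling adaptors and enzymes, 6 passed as lower at P15 against P0 and none as higher (1 did not pass), with 2 of the 6 called. Of all tested genes, 40.9% passed as lower there, 45.3% as higher, and 11.4% were called lower.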

How the data were processed

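RNA was sequenced in 16 libraries, 4 for each of the 4 phases. Per the methods, paired-end reads were aligned to GRCh38 with STAR 2.6.1a and counted on genes with featureCounts. The strand setting and the treatment of multi-mapped reads are not given in the sources used here. The deposited table gives each CPM as log2 after adding 1, with 2 decimals kept. Back on the linear scale these summed to the same total in every library, within rounding, so the quantile normalization and centring that the methods describe were not in them.

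A linear model with a mean for each phase was fitted to the log2 values of all 16 libraries with limma 3.58.1 (R 4.3.3, variance prior with a trend). Genes averaging 1 CPM or less were left out, and p-values were adjusted by Benjamini-Hochberg over the other 13249. Log2 fold changes are on the scale with a pseudocount of 1 and understate the change of low genes. PDGFRA and the ligand sums were compared with exact permutation tests in Python 3.11.15 (scipy 1.17.1). The limma fit, and not the permutation tests, was run on simulated data in which 200 genes changed. Counts behind low values were estimated from the spacing of the values. Besides counting error they carry the error of that estimate and of the rounding to 2 decimals.

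Gene positions and lengths are those of GENCODE version 44. Lengths are of the Ensembl canonical transcript, with the exon union as an alternative chosen after seeing the data. Promoter windows are from RefSeq on GRCh38.p14. The genes, the list of 44 pathway genes, the marker lists and the tests were chosen with earlier results of these data known. A gene of the leukocyte list is not reported here and was left out of its sum. The 10 genes are each described. Of the pathway list, the text names the VEGF family ligands, receptors and neuropilins and, per comparison, the 2 called genes with the largest rise and the 2 with the largest fall. For each gene with a range of at least 1, the 3 genes with the nearest phase means are named. Replicate numbers are those of the sample descriptions, which differ from those in the titles for 14 libraries. Alternatives were other normalizations, filters, pseudocounts, variance priors and thresholds, a replicate block, each pair of phases alone and each library left out in turn.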

Additional observations from a re-analysis of the deposited data

Results flagged for a closer look

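PDGFC at P7 had 1 library apart from the others of its phase. Replicate 2 had a log2 value of 5.53, and the other 3 libraries had 5.33, 5.33 and 5.34, so that its gap to the nearest library was 0.95 of the whole range, above Dixon's 95% critical value for 4 values. Over 40 groups of 4 libraries, 1 such library was found, where chance gives about 2. Without it the rise of PDGFC from P3 to P7 was 0.36 (adjusted p = 2.26e-07, limma) and the fall from P7 to P15 was -0.30 (adjusted p = 9.93e-07).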

How the results depend on the processing

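The 54 log2 fold changes of the 9 tested genes were recomputed 1392 times under the alternatives. Of these, 1374 kept their direction and their side of the adjusted p threshold of 0.05, 15 no longer passed it and 2 passed in addition. The remaining 1 changed sign, VEGFA at P3 against P0 without P0 replicate 3 (-0.011, with 0.099 the highest value when another library was left out). The fold threshold was not part of this count. Leaving out a library of a phase outside a comparison left its log2 fold change as it was, so such values could not change direction. Counts of called genes depended most on the fold threshold and on low genes. With at least 1 CPM in all 16 libraries, which leaves 7 of the 9 genes in the test, 0 were called at P3 against P0, 0 at P7 against P3, 0 at P7 against P0, 1 at P15 against P0 and 2 at P15 against P3. With a pseudocount of 5 the counts were 1 at P3 against P0, 1 at P15 against P7, 0 at P7 against P0, 1 at P15 against P0 and 2 at P15 against P3. With no fold threshold 8 passed in each comparison, and 9 at P15 against P7. The treat test against a fold of 1.5 called 4 at P3 against P0. For the pathway list, the stricter filter gave 0 at P3 against P0 and 9 at P15 against P7, a pseudocount of 0.1 gave 4 and the treat test 6 at P3 against P0, a pseudocount of 5 gave 9 at P15 against P0, and no fold threshold gave 29 at P3 against P0, 23 at P7 against P3, 28 at P15 against P7 and 30 at P15 against P0. Leaving out 1 library gave 3 to 5 called genes of the 9 at P15 against P7 and the reported counts of the 9 in the other comparisons. For the pathway list it gave 2 to 3 at P3 against P0, 2 at P7 against P3, 14 to 15 at P15 against P7 and 12 to 14 at P15 against P0. The 12 called lower at P15 against P0 include a gene at the threshold itself, with a log2 fold change of -1. Leaving out any 1 library of P3 or P7 gave 11 called lower there, although these phases lie outside that comparison. With the exon-union length, 33 of 36 comparisons of ligand sums and shares kept their call, the share of VEGFB at P15 against P7 changed sign (from -2.28 to 0.326 percentage points, neither passing), and the share of VEGFC at P15 against P0 no longer passed (exact permutation p = 0.0571).

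With the numbers of the descriptions, same-numbered libraries of different phases did not deviate together (Pearson r of -0.15 to 0.22 over 24 pairs). Of the 16 libraries, 5 were closest to their own number. With the numbers of the titles, r was -0.12 to 0.22, and 6 were closest to their own number. This check sees only shared deviations and cannot show whether the numbers stand for paired cultures or preparations. With the replicate block of the descriptions, 2, 1, 4, 2, 2 and 4 of the 9 genes were called in the 6 comparisons, the same counts as without it, and PDGFA at P3 against P0 had an adjusted p of 0.055. Depth limited ESM1 and PDGFRB at their lowest phases and PDGFRA throughout.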

Other observations

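ANGPT4, an angiopoietin, was examined after its values were seen and lay under the filter on low genes, so it was not tested. Its log2 mean was 0.42 ± 0.10 at P0, 0.19 ± 0.06 at P3, 0.38 ± 0.08 at P7 and 1.96 ± 0.11 at P15 (SD, n = 4), with every library of P15 above all others. ANGPT1, another angiopoietin, went the other way, with 1.56 ± 0.09 at P7 and 0.05 ± 0.04 at P15, and TEK, the receptor of both, had a mean of at most 0.06 in every phase.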
